A study of Homo sapiens with 12 samples.

Results

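CNOT1, CNOT2, CNOT3, CNOT4, CNOT6, CNOT6L, CNOT7, CNOT8 and CNOT10 encode proteins of the CCR4-NOT complex, and their RNA was followed in 2 human cancer cell lines treated with inhibitors of the co-activators CBP and p300. CCR4-NOT is the main deadenylase of the cytoplasm: it shortens the poly(A) tail of mRNAs, which precedes removal of the cap and decay of the message. CNOT1 is the scaffold on which the other subunits assemble, CNOT2 and CNOT3 form the NOT module at its C-terminal end, and CNOT6, CNOT6L, CNOT7 and CNOT8 are the catalytic subunits. RNA-binding proteins and the microRNA machinery bring the complex to particular messages.

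The 9 genes were taken by name from a table of 34687 rows, 1 row per gene name, and all 9 had a row. The group was selected on a result of these data, namely that CNOT3 was lower than in DMSO in all 8 comparisons of a drug with its solvent. Its drug-over-DMSO ratios below are therefore a description, and no test was made of them.

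HCT116 is a colorectal cancer line and PANC1 a pancreatic ductal adenocarcinoma line. Each line was given either drug, ICG-001 or C646, at 10 uM, or DMSO, the solvent, at 0.05%, and cells were harvested at 12 h or at 96 h, which gave 12 groups. The drug ICG-001 prevents CBP from binding β-catenin, and C646 inhibits the acetyltransferase activity of both CBP and p300. Total RNA was hybridized to Illumina HumanHT-12 v4 BeadChips, on which labelled RNA bound to bead-borne probes is read as a signal intensity. Each group had 1 column of signals, the authors' mean over 2 arrays, or over 3 arrays for PANC1 ICG-001 12 h. No spread between arrays could be computed from these means, so every difference below is a size without an error, and the number of arrays limits its precision.

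The median signal was 139.05 to 139.64 in HCT116 columns and 132.7 to 133.5 in PANC1 columns. The detection limit of a column, set from the spread of its background signals, was 144.2 to 145.2 in HCT116 and 136.1 to 138.2 in PANC1, and 15173 to 16103 genes per column lay above it. Genes at or under the limit in both columns of a comparison were not tested in it, and a tested gene was called changed at a ratio of at least 1.5. Log2 ratios of genes under the limit, which show how far background signals scatter between columns, had an SD of 0.062 to 0.074. Here and where they are cited below, these SDs do not give the scatter at higher signals. The epithelial markers EPCAM, CDH1, KRT8 and KRT18 were above the limit in all columns of both lines. Of 6 colon epithelium markers only CDX2 was above the limit in all HCT116 columns, while CDX1, VIL1, CDH17 and LGR5 were at or under it throughout. Of 6 pancreatic duct markers 5 were above the limit in all PANC1 columns, and 5 were also above it in all HCT116 columns. PTPRC, CD3E, PECAM1, VWF, COL1A2 and DCN, markers of blood cells, endothelium and fibroblasts, were at or under the limit in all columns. COL1A1, the third fibroblast marker, was above it in all columns of both lines, at 172.9 to 216.9 in HCT116 and 181.0 to 378.8 in PANC1, and CD14, the third blood cell marker, in all PANC1 columns, at 142.1 to 172.6. The part of other cell types in the results was not tested.

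The sequence upstream of CNOT3 is shown with that of its NOT-module partner CNOT2, because CNOT3 was lower with both drugs and CNOT2 was not. Both are the 250 bases before the transcript start listed by RefSeq on GRCh38.p14, written 5′ to 3′ on the plus strand. Capitals mark CCAAT, the core of the element bound by the trimeric factor NF-Y. The first is chr19:54137512-54137761 and the second chr12:70243491-70243740.
CNOT3: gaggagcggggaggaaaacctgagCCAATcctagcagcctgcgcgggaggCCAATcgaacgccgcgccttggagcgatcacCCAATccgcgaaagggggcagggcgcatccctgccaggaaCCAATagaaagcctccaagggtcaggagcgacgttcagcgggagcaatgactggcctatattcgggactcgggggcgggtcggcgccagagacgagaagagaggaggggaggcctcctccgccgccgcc
CNOT2: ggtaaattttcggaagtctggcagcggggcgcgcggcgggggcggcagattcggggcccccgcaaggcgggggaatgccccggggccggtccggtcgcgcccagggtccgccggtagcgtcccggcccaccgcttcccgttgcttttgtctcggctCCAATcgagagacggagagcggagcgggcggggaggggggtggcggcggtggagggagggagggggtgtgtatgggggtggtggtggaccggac

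The CNOT3 window held CCAAT 4 times, all on the forward strand, beginning 226, 200, 169 and 129 bases before the start. CNOT2 held it once, 94 bases before the start. Of 27305 promoter windows of the same length searched on both strands, 33.0% held at least 1 CCAAT and 0.930% held 4 or more. RefSeq windows were matched for 7 of the 9 genes, and CNOT1 and CNOT7 were not matched. Among those 7, CNOT10 held CCAAT 3 times and CNOT6 once, and the other 3 did not hold it. CTTTGA, the core of the TCF site, was found in 11.4% of windows and, among the 7, in CNOT8 alone. TGACGTCA, the cAMP response element, was in 1.77% of windows and in none of the 7, and likewise CCGGAAG, an ETS core, was in 8.82% and in none of the 7. GGGCGG, the SP1 box, was in 42.3% of windows and in 5 of the 7, and GCCATNTT, a YY1 core, was in 3.91% and in CNOT8 alone. GC content was 66% for CNOT3 and 73.6% for CNOT2, against a median of 58% over all windows. These matches describe the letters of the windows.

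To see how CNOT3 responded, its signal was first set beside that of cells of the line kept in DMSO for as long. CNOT3 was lower in every drug column, by 1.51-fold to 2.08-fold. In HCT116 cells at 12 h the CNOT3 signal was 326.0 in DMSO and fell to 215.8 in ICG-001 and 199.8 in C646. At 96 h the HCT116 signals were 361.4, 224.3 and 211.1 in the same order. All 4 HCT116 drug columns lay between 199.8 and 224.3, below both DMSO columns. In PANC1 cells the signal was 596.7 in DMSO at 12 h, 389.8 in ICG-001 and 286.7 in C646, and at 96 h it was 402.5, 227.1 and 239.1. The 4 PANC1 drug columns also lay below both DMSO columns, although ICG-001 at 12 h was close to DMSO at 96 h.

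**Figure D1:**
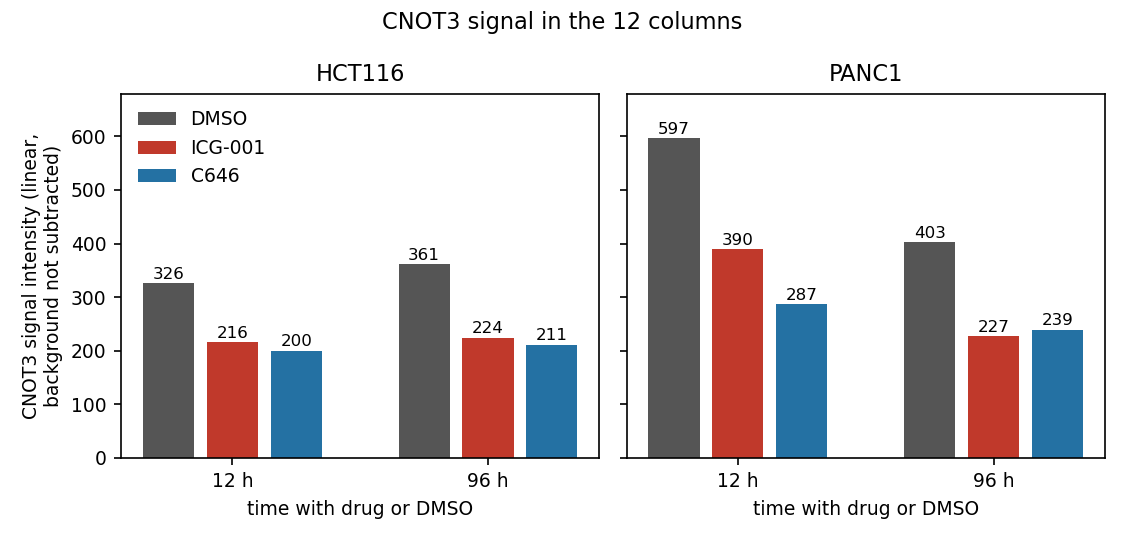
CNOT3 signal intensity (vertical axis, linear, background not subtracted) in each of the 12 columns, by time and treatment, for HCT116 (left) and PANC1 (right). Bars are the authors' means over 2 or 3 arrays and have no error bars. In both lines every drug column lies below both DMSO columns, from 199.8 to 224.3 against 326.0 and 361.4 in HCT116.

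On the log2 scale the HCT116 ratios of CNOT3 to DMSO were -0.60 after 12 h and -0.69 after 96 h of ICG-001, and -0.71 after 12 h and -0.78 after 96 h of C646. In PANC1 cells they were -0.61, -0.83, -1.06 and -0.75 in the same order. The smallest difference, 1.51-fold in HCT116 cells with ICG-001 at 12 h, lay just inside the 1.5-fold threshold. The largest was in PANC1 cells with C646 at 12 h, where CNOT3 was 2.08-fold lower. The signal includes background, so these ratios understate the change in RNA, and fewer cells making a transcript cannot be told apart from less of it per cell.

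How far CNOT3 stood from other genes depended on how many genes moved in a comparison. In HCT116 cells 670 of 16538 genes tested had a ratio as low as that of CNOT3 with ICG-001 at 12 h, and 603 of 16734 did at 96 h. With C646 the corresponding numbers in HCT116 were 122 of 16542 and 63 of 16550. In PANC1 cells they were 47 of 16847 at 12 h and 218 of 16899 at 96 h for ICG-001. For C646 in PANC1 they were 45 of 17092 and 69 of 16884. CNOT3 thus lay inside the middle 95% of all genes in both HCT116 comparisons with ICG-001 and below it in the other 6. Of 13300 genes tested in all 8 comparisons, 4 were at least 1.5-fold lower in every one, or 0.0301%, and these were CNOT3, H2AFX, LOC644936 and YWHAE. The comparisons of 1 line and time point share their DMSO column, and CNOT3 was chosen for this pattern, so the count is a description.

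**Figure D2:**
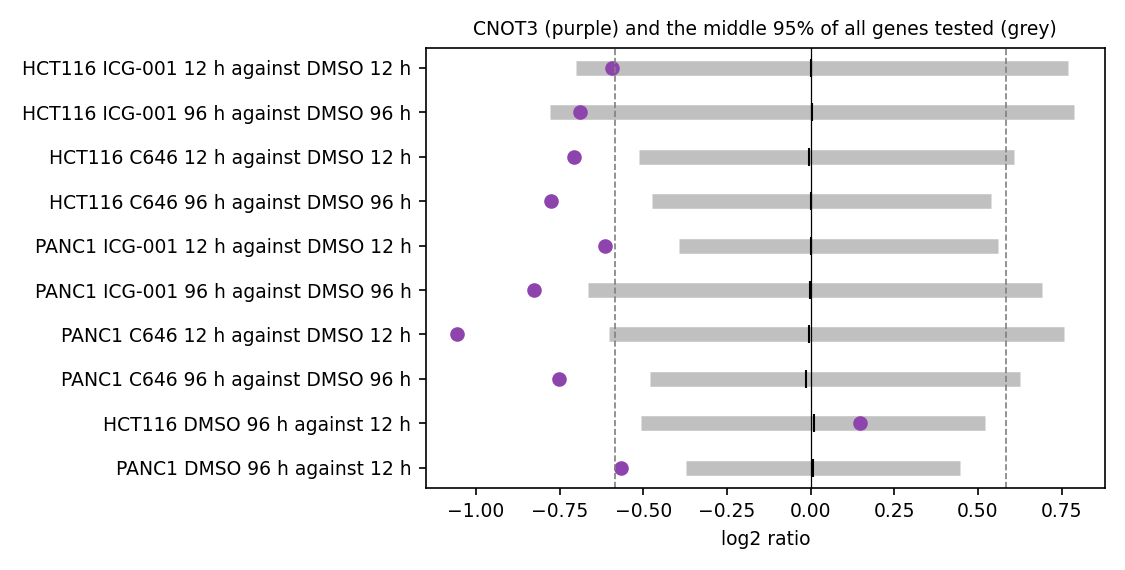
Log2 ratio of CNOT3 (purple point) and the middle 95% of all genes tested (grey bar, black tick at the median) in the 8 comparisons with DMSO and, in the lowest rows, between the DMSO columns of each line. Dashed lines mark 1.5-fold. CNOT3 lies within the grey bar in both HCT116 comparisons with ICG-001 and left of it in the other 6 drug comparisons, and left of it also between the PANC1 DMSO columns.

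The DMSO columns themselves differed in CNOT3, which bears on the PANC1 values. In HCT116 cells CNOT3 in DMSO was 361.4 at 96 h and 326.0 at 12 h, a log2 difference of 0.15. In PANC1 cells it went from 596.7 at 12 h to 402.5 at 96 h, a log2 difference of -0.57 or 1.48-fold, just under the threshold, and 0.440% of the genes tested were as low. The other 8 genes differed less in PANC1, with log2 differences between the DMSO columns of -0.22 to 0.33. In HCT116 CNOT8 at 0.34, CNOT10 at -0.30 and CNOT6 at 0.18 differed more than CNOT3. Against the DMSO column of the other time point, CNOT3 with ICG-001 at 12 h in PANC1 was 1.03-fold lower and with C646 at 12 h 1.40-fold lower. ICG-001 at 96 h in HCT116 was then 1.45-fold lower, and the other 5 comparisons remained past 1.5-fold, up to 2.63-fold in PANC1 with ICG-001 at 96 h. All 8 ratios stayed below 0 with either DMSO column, though ICG-001 at 12 h in PANC1, at -0.046, was smaller than the background SDs of 0.062 to 0.074. CNOT3 was chosen for this sign and the same 12 columns were used again, so the kept sign is a description.

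None of the other 8 genes changed 1.5-fold in any comparison with DMSO. In HCT116 cells with ICG-001, CNOT3 alone of the 9 was called at 12 h, when 9.25% of all genes tested were, and alone at 96 h, when 10.5% were. With C646 it was alone among the 9 in HCT116, where 4.24% of genes were called at 12 h and 3.18% at 96 h. In PANC1 cells CNOT3 was again the 1 gene of the 9 called with ICG-001, beside 2.58% of genes at 12 h and 7.6% at 96 h. It was the 1 gene called with C646 in PANC1, beside 6.85% at 12 h and 4.05% at 96 h. A share of 1 in 9 from a group chosen for CNOT3 says nothing about the complex, and without CNOT3 the share was 0 of 8 in each comparison. The median log2 ratio of the 9 genes ran from -0.19 to 0.02 over the 8 comparisons, and that of all genes tested was between -0.01 and 0.00.

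**Figure D3:**
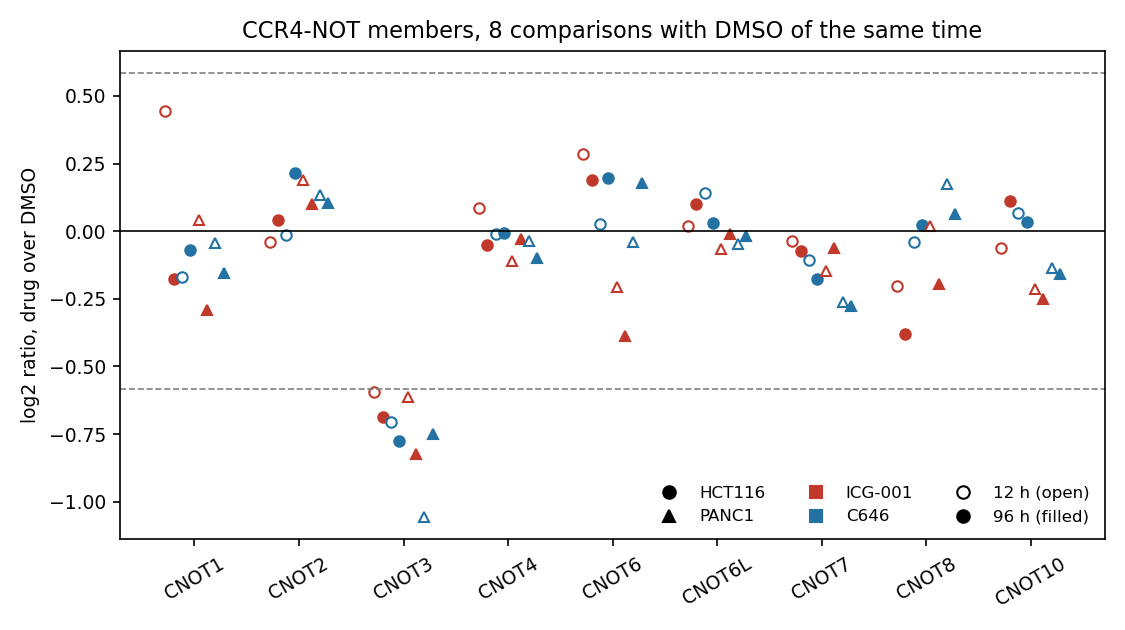
Log2 ratio of drug over DMSO of the same line and time (vertical axis) for each of the 9 genes in the 8 comparisons. Circles are HCT116 and triangles PANC1, red is ICG-001 and blue C646, open symbols are 12 h and filled symbols 96 h, and dashed lines mark 1.5-fold. All 8 CNOT3 points lie below the lower dashed line, and no point of the other 8 genes passes either line.

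CNOT1, the scaffold, was the gene nearest to the threshold from outside. Its HCT116 signal was 810.5 in DMSO, 1102 in ICG-001 and 720.0 in C646 at 12 h, and 855.6, 756.9 and 814.6 at 96 h. ICG-001 at 12 h was the highest of these, a log2 ratio of 0.44 to DMSO or 1.36-fold, while the other 3 HCT116 ratios were below 0. In PANC1 cells CNOT1 was 518.5, 533.8 and 502.6 at 12 h and 593.8, 485.4 and 533.2 at 96 h in the same order, with the lowest log2 ratio, -0.29, for ICG-001 at 96 h. In PANC1 with ICG-001 at 12 h the log2 ratio of 0.04 was under the background SD of 0.067, and it was -0.15 against the DMSO column of 96 h. That SD does not give the scatter at the signal of CNOT1.

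CNOT2, which pairs with CNOT3 in the NOT module, did not follow it. Its signal ran from 935.5 to 1119 over the HCT116 columns and from 849.1 to 979.3 over the PANC1 columns. CNOT2 was above DMSO in all 4 PANC1 comparisons, by 0.10 to 0.19 on the log2 scale, and in HCT116 its ratios ran from -0.04 to 0.22. The share of all genes with the same direction in all 4 comparisons of a line was not computed. Such directions, here and for CNOT6 and CNOT10 below, are therefore a description. CNOT4, an E3 ubiquitin ligase associated with the complex, varied least of the genes clearly above background, from 319.7 to 367.9 in HCT116 and 324.4 to 373.5 in PANC1. Its log2 ratios to DMSO were between -0.11 and 0.08.

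The catalytic subunits fall into exonuclease-endonuclease-phosphatase type enzymes, CNOT6 and CNOT6L, and DEDD type enzymes, CNOT7 and CNOT8. CNOT6 in HCT116 was 558.7 in DMSO, 681.5 in ICG-001 and 568.9 in C646 at 12 h, and 632.9, 721.9 and 725.9 at 96 h. It was above DMSO in all 4 HCT116 comparisons, by 0.03 to 0.29 on the log2 scale, but C646 at 12 h turned to -0.15 against the DMSO column of 96 h. In PANC1 cells CNOT6 was 442.5, 383.8 and 430.2 at 12 h and 379.3, 290.2 and 429.0 at 96 h. There it was below DMSO with ICG-001 at both times, with log2 ratios of -0.21 and -0.39, and above it with C646 at 96 h, at 0.18. With the DMSO column of the other time point ICG-001 at 12 h was at 0.02 and C646 at 96 h at -0.04, so those directions turned. CNOT6L stayed at the edge of detection, from 143.8 to 159.7 in HCT116 and 134.1 to 141.0 in PANC1, and was above the limit in 5 of 6 and 4 of 6 columns. Its level could not be read at this signal, and its ratios lay between -0.07 and 0.14.

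CNOT7 was below DMSO in all 8 comparisons, as CNOT3 was, with ratios nearer to 0. Of the 13300 genes tested in all 8, 11.9% were below 0 in all of them. CNOT3 was chosen for this sign and is not counted, and of the other 8 genes CNOT7 alone was. In HCT116 cells CNOT7 was 1240 in DMSO, 1210 in ICG-001 and 1153 in C646 at 12 h, and 1164, 1105 and 1028 at 96 h. In PANC1 cells it was 521.0, 470.8 and 434.3 at 12 h and 470.6, 450.9 and 388.9 at 96 h. C646 was the lower of the drugs at both times in both lines, and the log2 ratios to DMSO ran from -0.28 to -0.04. Those with ICG-001 at 12 h in HCT116, -0.036, and at 96 h in PANC1, -0.062, were under the background SDs of 0.073 and 0.070. These SDs are of genes under the limit and do not give the scatter at the signal of CNOT7. Against the DMSO column of the other time point CNOT7 with ICG-001 at 12 h was at 0.06 in HCT116 and at 0.00 in PANC1, so that it was no longer below 0 in all 8. CNOT8, the paralog of CNOT7, gave ratios on both sides of 0, from -0.38 with ICG-001 at 96 h in HCT116 to 0.17 with C646 at 12 h in PANC1. CNOT10, which docks with CNOT11 on the N-terminal part of the scaffold, was below DMSO in all 4 PANC1 comparisons, by -0.25 to -0.14, though C646 at 12 h was at 0.03 against the DMSO column of 96 h, and lay between -0.06 and 0.11 in HCT116.

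To compare the drugs without a shared control, each ICG-001 column was set against the C646 column of the same line and time, both at 10 uM. In HCT116 cells at 12 h CNOT1 was the 1 gene of the 9 that differed 1.5-fold, higher with ICG-001 by 0.61 on the log2 scale, where 6.43% of all genes tested were called. At 96 h 0 of 9 differed in HCT116, beside 6.64% of all genes. In PANC1 cells 0 of 8 tested differed at 12 h, when CNOT6L was under the limit in both columns and 2.56% of all genes were called. At 96 h 0 of 9 differed in PANC1, beside 6.98%. CNOT6 came closest there, lower with ICG-001 by -0.56 on the log2 scale. CNOT8 was lower with ICG-001 than with C646 in all 4 comparisons, by -0.40 to -0.15, and CNOT7 was higher in all 4, by 0.07 to 0.21. The CNOT7 difference in HCT116 at 12 h, 0.069, was under the background SD of 0.074. The share of all genes with the same direction in all 4 was not computed, so these directions are a description. CNOT3 differed between the drugs by 0.11 and 0.09 in HCT116 at 12 and 96 h, by 0.44 in PANC1 at 12 h and by -0.07 in PANC1 at 96 h. CNOT3 was thus lower with C646 than with ICG-001 in PANC1 at 12 h, and at the other 3 the columns lay within 1.08-fold. With 1 column per group none of these differences could be tested.

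The columns of 96 h were also compared with those of 12 h of the same line and treatment, which gives 6 pairs that share no column. Per the study's methods the cells for 96 h were plated thinner than those for 12 h and were passaged during treatment, so time and culture density cannot be told apart. In the DMSO pairs 0 of the 9 genes changed 1.5-fold, where 3.19% of all genes did in HCT116 and 1.33% in PANC1. In the HCT116 drug pairs 0 of the 9 changed, beside 7.03% of all genes in the ICG-001 pair and 7.22% in the C646 pair. In PANC1 with ICG-001 CNOT3 was the 1 gene called, lower at 96 h by -0.78 on the log2 scale, beside 4.08% of all genes, and with C646 0 of the 9 were called, beside 0.49%. CNOT3 was lower at 96 h in all 3 PANC1 pairs, whose differences were -0.57 in DMSO, -0.78 with ICG-001 and -0.26 with C646. It was higher at 96 h in all 3 HCT116 pairs, by 0.06 to 0.15. The HCT116 difference with ICG-001, 0.056, was under the background SD of 0.072. The share of all genes with opposite time directions in the lines was not computed, so this is a description.

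CNOT8 was higher at 96 h in all 6 pairs, as were 8.66% of the 13203 genes tested in all of them. In HCT116 it went from 543.4 to 686.5 in DMSO, from 471.7 to 527.8 with ICG-001 and from 528.2 to 696.6 with C646. In PANC1 it went from 378.3 to 474.4, from 383.7 to 414.5 and from 426.9 to 495.4. The log2 differences were 0.11 to 0.40, larger in each line in DMSO and C646 than in ICG-001, and none reached 1.5-fold. CNOT4, CNOT7 and CNOT10 were lower at 96 h in all 6 pairs, as were 10.1% of genes, by -0.20 to -0.02, by -0.17 to -0.06 and by -0.33 to -0.12. CNOT10 in HCT116 went from 433.3 to 352.7 in DMSO, from 414.7 to 381.0 with ICG-001 and from 453.7 to 361.5 with C646, and in PANC1 from 312.5 to 279.1, 269.1 to 234.8 and 284.5 to 250.2. These directions were noticed after the values were seen. CNOT1 in HCT116 with ICG-001 had the largest time difference outside CNOT3, -0.54.

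**Figure D4:**
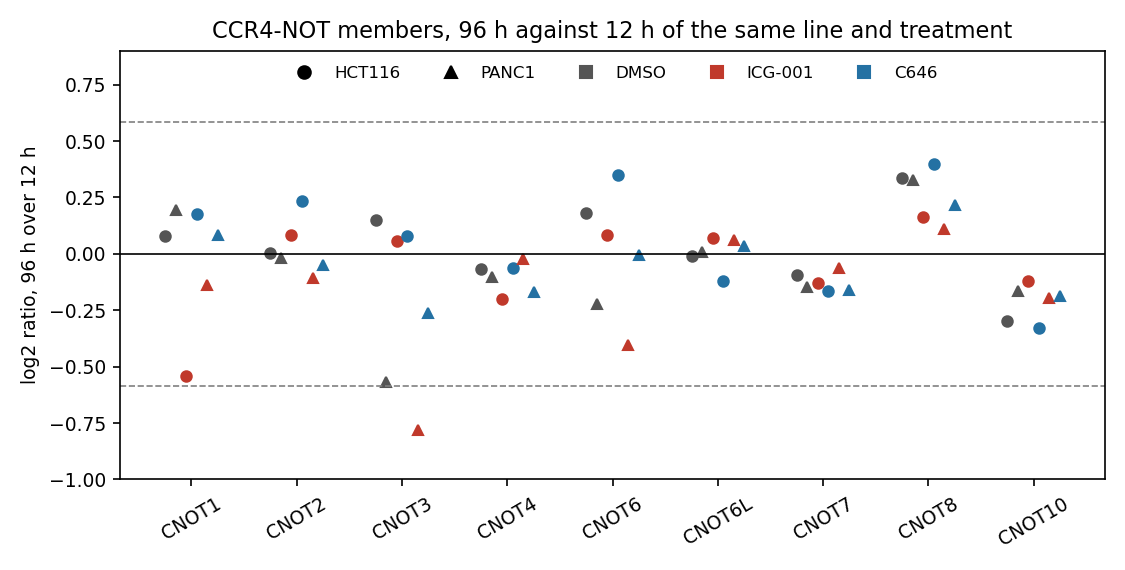
Log2 ratio of 96 h over 12 h (vertical axis) for each of the 9 genes in 6 pairs of columns of the same line and treatment. Circles are HCT116 and triangles PANC1, grey is DMSO, red ICG-001 and blue C646, and dashed lines mark 1.5-fold. All 6 CNOT8 points lie above 0 and all 6 CNOT10 points below it, while the CNOT3 points of HCT116 and PANC1 lie on opposite sides of 0.

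The lines were compared by the place of a gene among all genes of its own column, since the 12 columns fell into a set per line by their signal distributions. A place is the percentage of rows at or below the gene's signal. CNOT7 was at 91.8% to 93.1% over the HCT116 columns and 81.8% to 85.3% over the PANC1 columns, the widest gap of the 9. CNOT6 was at 86.5% to 89.0% and 78.0% to 83.4%, CNOT10 at 80.8% to 84.1% and 74.6% to 79.2%, and CNOT1 at 89.1% to 92.3% and 84.5% to 86.6%. With CNOT2, whose gap was narrow, 5 of the 8 genes tested did not overlap between the lines, and all 5 were higher in HCT116. CNOT6L was not tested, because it was not above the limit in every column of either line. Of all 14443 genes tested this way 37.3% did not overlap. CNOT3 was at 71.2% to 81.2% in HCT116 and 74.1% to 86.8% in PANC1 and did overlap, as did CNOT4, CNOT6L and CNOT8.

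Of 3 further subunits or partners of the complex, RQCD1 and C2orf29 gave ratios on both sides of 0 and TNKS1BP1 was below DMSO throughout. RQCD1, the older name of CNOT9, through which the complex binds GW182 proteins, was higher 1.5-fold in 1 of 8 comparisons, from 848.0 in DMSO to 1436 with ICG-001 in PANC1 at 96 h, a log2 ratio of 0.76. Its other ratios were between -0.23 and 0.33. Its HCT116 DMSO columns differed, with 672.4 at 12 h and 407.4 at 96 h, a log2 difference of -0.72. Against the DMSO column of the other time point the RQCD1 ratios ran from -0.95 to 0.70, and 3 of 8 changed sign. C2orf29, the older name of CNOT11, lay between -0.14 and 0.19, and 4 of its 8 ratios changed sign with that column. TNKS1BP1, which binds the complex, was below DMSO in all 8 comparisons, by -0.58 to -0.07, as were 11.9% of the 13300 genes tested in all 8. With ICG-001 at 96 h in HCT116 its ratio, -0.067, was under the background SD of 0.072. Against the DMSO column of the other time point the TNKS1BP1 ratios ran from -0.63 to -0.016. TNKS1BP1 was lower with C646 than with ICG-001 in each line at each time. In HCT116 at 12 h its signal was 224.4 in DMSO, 194.6 in ICG-001 and 150.1 in C646, the last close to that column's limit of 144.4. The log2 ratio with C646 there was -0.58, just short of the threshold, where CNOT3 was at -0.71. Of the genes tested in that comparison 1.61% were as low as TNKS1BP1 and 0.74% as low as CNOT3.

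Other genes that act on poly(A) tails and mRNA decay were read from lists of 83 genes with these subunits included, all found in the table. Over the 8 comparisons 28 values were 1.5-fold higher and 18 lower of 610 tested, or 7.54%, beside 6.03% of the values of all genes. Among 8 other deadenylases 3 of 64 values were higher and 0 lower, in PAN2, the catalytic subunit of PAN2-PAN3, and ANGEL2. Among 15 exosome genes, which degrade RNA from the 3′ end, 5 of 120 values were higher and 0 lower, in EXOSC2, EXOSC8 and DIS3L. Among 20 genes of decapping and 5′ decay 4 of 150 values were lower and 0 higher, in LSM2, LSM3 and LSM6 of the LSM ring, all in HCT116 cells with ICG-001. These genes were picked out after their values were seen. The list medians stayed between -0.34 and 0.28 in all comparisons.

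The list of proteins that recruit the complex held 30 genes, with 11 of 196 values higher and 7 lower, beside 6.03% of the values of all genes. YTHDF2, a reader of N6-methyladenosine that recruits CCR4-NOT through CNOT1, was below DMSO in all 8 comparisons and 1.5-fold lower in 5, with log2 ratios of -0.96 to -0.31. In PANC1 cells at 12 h its signal was 2184 in DMSO, 1764 in ICG-001 and 1124 in C646. EIF2C2, the older name of AGO2, the Argonaute that carries microRNAs, was above DMSO in all 8 and 1.5-fold higher in 4, with ratios of 0.33 to 1.05. In HCT116 cells at 12 h EIF2C2 was 818.6 in DMSO, 1692 in ICG-001 and 1258 in C646. YTHDF2 and EIF2C2 moved in opposite directions, and the list medians were between -0.11 and 0.08. PUM2, TNRC6A, BTG2 and SAMD4B of this list were also below DMSO in all 8, and NANOS1 and ZFP36 above it. Of the 13300 genes tested in all 8, 11.9% were below 0 in all of them. YTHDF2 and EIF2C2 were named for a 1.5-fold change the same way in at least 4 comparisons. The shares of all genes meeting this rule, or above 0 in all 8, were not computed.

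Of 7 poly(A) binding proteins and their regulators, 8 of 56 values were higher and 7 lower, beside 6.03% of the values of all genes. The 56 values are repeated comparisons of the same 7 genes with shared DMSO columns. All 8 higher values were those of PABPC1L, a cytoplasmic poly(A) binding protein best known from oocytes, whose log2 ratios ran from 0.68 to 2.51. In HCT116 at 96 h PABPC1L was 615.1 in DMSO, 3507 in ICG-001 and 983.3 in C646, and in PANC1 at 96 h it was 681.1, 1754 and 2130. The drug with the higher level thus differed between the lines at 96 h. PABPN1, the nuclear poly(A) binding protein, was below DMSO in all 8 and 1.5-fold lower in 4, with ratios of -0.68 to -0.14. Among the 13300 genes tested in all 8, 11.9% were likewise below 0 in each. PABPC3 and PAIP2 gave the other 3 lower values, all in HCT116 with ICG-001. PABPC1L and PABPN1 were named by the same rule as YTHDF2, so their counts are a description.

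**Figure D5:**
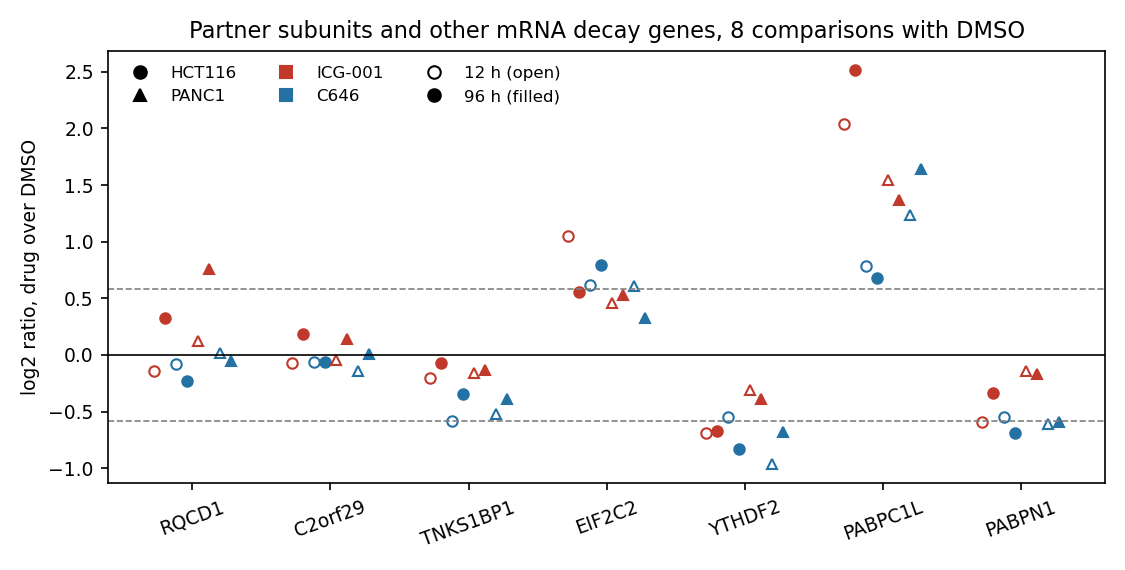
Log2 ratio of drug over DMSO of the same line and time (vertical axis) for 3 further subunits or partners of the complex and for the 4 list genes that changed 1.5-fold the same way in at least 4 of the 8 comparisons. Symbols are as in the plot of the 9 genes. All 8 PABPC1L points lie above the upper dashed line, and the YTHDF2 and PABPN1 points all lie below 0.

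The genes most like CNOT3 over the 12 columns were found by Pearson's r of log2 signals centred on the mean of each line, among 11573 other genes above the limit in every column. They were GNB2 at 0.973, C16orf56 at 0.971, GBF1 at 0.970, AP2A1 at 0.968 and YWHAE at 0.967. GNB2 encodes a G protein β subunit, GBF1 an exchange factor for ARF GTPases at the Golgi, AP2A1 a subunit of the clathrin adaptor AP-2 and YWHAE a 14-3-3 protein. YWHAE was 1.5-fold lower in all 8 comparisons, while GNB2, C16orf56 and AP2A1 were in 1 and GBF1 in 2, with ratios no lower than -0.83. The columns share DMSO and drug effects common to many genes, so such values describe a profile over 12 points. Of the 7 other members of the complex compared, CNOT7 had the highest r with CNOT3, 0.73, which was place 892 of the 11573, and CNOT2 the lowest, -0.33. CNOT6L, not above the limit in every column, was not compared.

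The genes on either side of CNOT3 in the RefSeq order were TFPT and PRPF31 before it and LENG1 and TMC4 after it, and none of them was 1.5-fold lower in all 8 comparisons. PRPF31, a splicing factor of the U4/U6 snRNP, was lower 1.5-fold in 3 comparisons, all with ICG-001, at log2 ratios of -0.95 and -0.66 in HCT116 and -0.90 in PANC1 at 96 h. With C646 its ratios were between -0.19 and 0.02, where CNOT3 was at -0.71 or lower. TFPT, LENG1 and TMC4 changed 1.5-fold in 0 of 8 comparisons.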

How the data were processed

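RNA of 12 groups of HCT116 and PANC1 cells was measured on Illumina HumanHT-12 v4 BeadChips. The values deposited by the authors are linear signal intensity, with 1 row per gene name. The authors exported them from GenomeStudio (version not given in the sources used here) with quantile normalization and without background subtraction, then averaged replicate arrays, which were independent biological replicates. Averaging removed the spread, so no test was run. Which probes stand behind a gene name and the annotation build were not given in the sources used here.

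Signals were log2-transformed and subtracted between columns. The detection limit was the peak of a column's log2 signals plus 2.33 SD of the values below the peak. A gene was tested when above it in at least 1 column and called changed at 1.5-fold. The 9 genes and the lists were chosen with earlier results of these data known. A list gene was named when changed the same way in at least 4 of 8 comparisons or when a subunit of the complex, together with the 5 genes most like CNOT3 and the 2 neighbours on either side, and further genes where stated. Results were recomputed at 1.2-fold and 2-fold, with dim genes kept, with the limit raised to 5 SD, after normexp correction (offset 16), after centring, after quantile normalization of the 12 columns together and with the DMSO column of the other time point. The steps were tested on simulated data. The software was matplotlib 3.10.9, scipy 1.17.1, pandas 2.3.3 and numpy 2.4.6 under Python 3.11.15, and limma 3.58.1 under R 4.3.3.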

Additional observations from a re-analysis of the deposited data

Results flagged for a closer look

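CNOT6L had log2 ratios of opposite sign in the lines, none of which was a called change. Its log2 ratio to DMSO was 0.02 to 0.14 in the 4 HCT116 comparisons and -0.07 to -0.01 in the 4 PANC1 comparisons, so that the line means differed by 0.108. The difference was not tested, CNOT6L lay at or near the detection limit in all columns, and the PANC1 ratios were no larger than the SD of background log2 ratios, 0.067 to 0.073. Of 13300 genes tested in all 8 comparisons 258, or 1.94%, were likewise above 0 in every comparison of 1 line and below 0 in every comparison of the other, and 16 named genes were examined for it.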

How the results depend on the processing

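No paired analysis was possible because each group had 1 column, a mean over its replicates. No direction of CNOT3, which was chosen for being lower in all 8 comparisons, turned under any alternative. At 1.2-fold, ICG-001 gave 3 called genes of the 9 in HCT116 at 12 h, 2 in HCT116 at 96 h and 3 in PANC1 at 96 h, and C646 gave 2 in PANC1 at 96 h. At 2-fold 0 were called in 7 comparisons, and CNOT3 in PANC1 with C646 at 12 h was the exception. CNOT3, for which the group was chosen, is in each of the 1.2-fold counts. The shares of all genes called at 1.2-fold and 2-fold were not computed, so these counts are a description. After normexp correction, which removes background, the CNOT3 log2 ratios of HCT116 became -0.94, -1.06, -1.14 and -1.21 (ICG-001 at 12 and 96 h, then C646) and those of PANC1 became -0.79, -1.18, -1.38 and -1.07, and the median of the 9 genes in PANC1 with ICG-001 at 12 h was -0.20. Against the DMSO column of the other time point the CNOT3 ratios of HCT116 became -0.74, -0.54, -0.85 and -0.63 and those of PANC1 became -0.046, -1.39, -0.49 and -1.32. Calls were then 0 in HCT116 for ICG-001 at 96 h, 0 in PANC1 for both drugs at 12 h and 2 in PANC1 for ICG-001 at 96 h, and the median in HCT116 for ICG-001 at 12 h was 0.057. The share of all genes called with that column was not computed either. Of the 64 ratios of the other 8 genes 18 changed sign with that column, none of them a called change, and those of CNOT2 and CNOT6L did not. Counts, medians and CNOT3 ratios moved little with no filter, a limit at 5 SD, centring or quantile normalization over all 12 columns. The time directions of CNOT4, CNOT7, CNOT8 and CNOT10 held in 6 of 6 pairs under normexp, centring and quantile normalization over all columns, which were chosen after seeing the data. All values are limited by the few arrays averaged per column, and signals near background limit those of CNOT6L.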
